A study of Mus musculus with 6 samples.

Results

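The genes described here encode the subunits of the oxidative phosphorylation system, taken by symbol from the deposited count table. Of 21978 entries, 96 were taken: 13 genes of the mitochondrial genome (symbols beginning mt-Nd, mt-Cytb, mt-Co or mt-Atp) and 83 nuclear genes (Nduf genes of the a, b, c, s and v series with a number, Sdha to Sdhd, and symbols that begin with Uqcr, Cox4 to Cox8 or Atp5). By complex, 43 belong to complex I, 4 to complex II, 9 to complex III, 21 to complex IV and 19 to complex V. The rule follows names and used no measured value. A few names depart from present usage, since Ndufa4 is now placed in complex IV, Cox7a2l is known for joining complexes into supercomplexes, and Atp5sl and Atp5s are no longer counted as subunits of the ATP synthase.

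Complexes I to IV pass electrons from NADH and succinate to oxygen, complexes I, III and IV pump protons across the inner mitochondrial membrane, and complex V uses the proton gradient to make ATP. The catalytic core of complexes I, III and IV and the proton channel of complex V are encoded partly in mitochondrial DNA, which is transcribed as long polycistronic RNAs that are then cut apart. All remaining subunits, and all of complex II, are encoded in the nucleus, translated in the cytosol and imported, so each mixed complex needs transcripts of both genomes.

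The cells were mouse embryonic stem cells of 3 kinds, told apart by their DGCR8, the partner of Drosha in miRNA processing. KO cells had the genotype DGCR8 -/- and were not transfected (libraries 1 and 3). The wt cells (clones 12 and 16) had the genotype DGCR8 wt/wt and received the transposon vector pSB ET iE-FlagDGCR8-wt together with a plasmid for its transposase, pCMV(CAT)-SB100X. E518K cells (clones 8 and 15) had the genotype DGCR8 E518K/E518K and received pSB ET iE-FlagDGCR8-E518K with the same plasmid. These genotypes are given as labelled, and the labels do not state whether the wt and E518K lines derive from the KO line. Cells of all groups, KO included, were grown feeder-free in LIF plus GSK3 and MEK inhibitors, and were given doxycycline at 300 ng/mL for 48 h. Doxycycline induces such vectors and is also known to inhibit mitochondrial translation. Both KO titles carry clone number 261, so the spread behind the p-values is that of the libraries at hand and may be technical for KO. DGCR8 status and transfection cannot be told apart in comparisons with KO, and in cultured bulk cells a smaller number of expressing cells cannot be told apart from less RNA per cell. The 3 comparisons below share libraries, so their values are given side by side and do not support each other.

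Library totals ranged from 73642784 to 75121971 counts. The length that relates deposited counts to TPM was that of the whole gene, introns included. This length was known up to a scale factor, which was set by the median ratio of span to it over all genes with coordinates. So scaled, it lay within 5% of the span for 80 of 82 nuclear members with coordinates and for all 13 mitochondrial members. With the same factor it lay within 5% of the exonic length for 0 of the 82 (median span over exonic length 4.14). No factor was fitted to exonic length. The sources used here do not state over which features reads were counted. Embryonic stem cell markers were present in every library. The summed level of 10 markers was 5570 to 5660 CPM (each gene's counts scaled to library size with TMM factors) in KO. It was 6530 to 7540 in wt and 6880 to 6950 in E518K. By edgeR, 8 of the 10 fell and 1 rose in KO against wt, where 29.7% of all genes tested fell and 27.4% rose. Summed levels of other cell types' markers were 3.33 to 6.58 CPM for fibroblasts, 2.14 to 4.16 for primitive endoderm and 65.0 to 89.7 for trophectoderm. Blood markers summed to 276 to 302 CPM, nearly all of it Laptm5.

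Both sets of genes moved in KO, in opposite directions. Between KO and wt, 57.2% of all 16498 genes tested passed edgeR's quasi-likelihood test at an adjusted p of 0.05, 27.4% higher and 29.7% lower in KO, and the median log2 fold change was -0.02. All 13 mitochondrially encoded members rose, with log2 fold changes from 0.36 to 0.73 and a median of 0.49. Of 83 nuclear-encoded members, 80 had enough counts to be tested, and 48 of them fell, 6 rose and 26 did not pass, with a median of -0.33. The 54 nuclear calls became 34 without KO library 3 (4 higher, 30 lower) and 39 without KO library 1 (3 higher, 36 lower). The rises numbered 11 without wt clone 12, 12 with library totals in place of TMM factors and 10 with limma on log2(TPM + 1), beside 48, 45 and 46 falls. The libraries of KO and wt did not overlap for all 13 mitochondrial members, all higher in KO. Among nuclear members KO lay wholly below wt for 58 (41.6% of all genes tested did) and wholly above for 12 (40.1% of all genes).

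**Figure D1:**
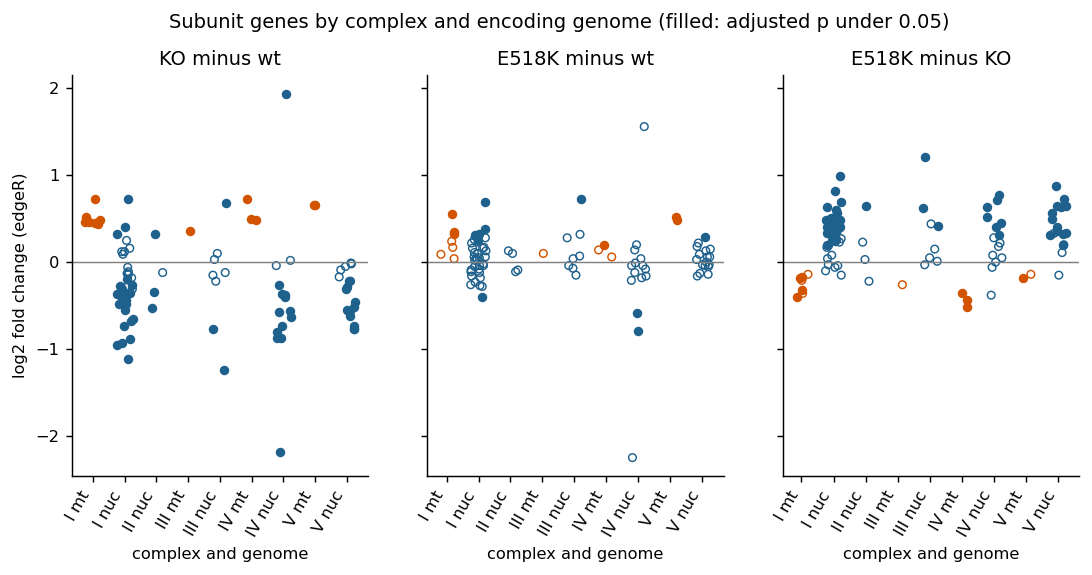
Log2 fold change (edgeR, vertical axis) of each tested member by complex and encoding genome, in 3 comparisons. Mitochondrial genes are orange, nuclear genes are blue, and filled points have an adjusted p under 0.05. In KO against wt all 13 orange points lie above 0 and most blue points lie below; in E518K against KO the arrangement is reversed for all 13 orange points.

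The mitochondrial genes lie close together, and neighbouring reading frames overlap in places, so a read can count for more than 1 member. The 43 last bases of mt-Atp8 are also the first 43 of mt-Atp6, both subunits of the membrane part of complex V, and 7 bases are shared by mt-Nd4l and mt-Nd4 of complex I. Both stretches are shown from the GENCODE transcripts (GRCm38, plus strand, chrM:7887-7969 and chrM:10127-10173) because the values of these pairs are not independent. Capitals mark the shared bases.

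mt-Atp8 end: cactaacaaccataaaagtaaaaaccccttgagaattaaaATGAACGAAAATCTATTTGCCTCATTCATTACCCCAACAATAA

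mt-Nd4l end: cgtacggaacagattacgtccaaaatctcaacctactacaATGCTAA

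Further, mt-Atp6 and mt-Co3 share 1 base, and mt-Nd5 and mt-Nd6 overlap by 14 bases on opposite strands. Whether counting used strand is not stated in the sources used here, and without it reads of mt-Nd6 and of RNA antisense to it cannot be told apart. All 6 mitochondrial members that overlap no other gene (mt-Nd1, mt-Nd2, mt-Nd3, mt-Co1, mt-Co2 and mt-Cytb) passed as higher in KO when only such genes were fitted.

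Per length, mt-Co1 was the most abundant member, and the complex IV and V genes of mitochondrial DNA stood above those of complexes I and III. In wt the mean level per exonic kilobase was 7080 CPM for mt-Co1, the catalytic subunit of cytochrome c oxidase. It was 6046 for mt-Co2, 4512 for mt-Atp6 and 2287 for mt-Nd1, and the lowest of the 13 was mt-Nd6 at 1036. The most abundant nuclear member per exonic kilobase was Atp5b, the catalytic beta subunit of complex V, at 559 in wt, 478 in KO and 549 in E518K.

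For complex I, mt-Nd1, which helps form the ubiquinone site, had 3528 and 3723 CPM in KO, 2212 and 2164 in wt, with 3135 and 3266 in E518K. The 3 groups did not overlap, with E518K nearer to KO. The log2 fold change between E518K and KO was -0.18 ± 0.06 (SE; adjusted p = 0.0349), a call lost when any 1 KO or E518K library was left out. mt-Nd3 had 577 and 553 CPM in KO, 401 and 387 in wt, with 497 and 509 in E518K, again in that order without overlap (0.52 ± 0.06 in KO against wt for mt-Nd3; adjusted p = 0.000332).

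The adjoining mt-Nd4l and mt-Nd4 differed between the E518K clones. mt-Nd4, a proton-pumping subunit, had 3296 and 3227 CPM in KO and 2374 and 2418 in wt, with 2742 in E518K clone 8 and 2202 in clone 15. mt-Nd4l had 578 and 555 CPM in KO, 403 and 422 in wt, 508 in clone 8 and 371 in clone 15. Clone 8 lay above both wt clones and clone 15 below them for this pair. KO was higher than wt by 0.44 ± 0.10 for mt-Nd4 and 0.46 ± 0.13 for mt-Nd4l (adjusted p = 0.00659 and 0.021), and the second call was lost without any 1 of the KO or wt libraries.

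The other complex I genes of mitochondrial DNA followed KO above wt as well. mt-Nd2 had 1560 and 1545 CPM in KO, 1072 and 1191 in wt, with 1525 and 1300 in E518K. mt-Nd5 had 2774 and 2634 CPM in KO, 1876 and 1975 in wt, with 2333 and 2009 in E518K. mt-Nd6, the only mitochondrial member read from the minus strand, had 766 and 706 CPM in KO, 500 and 575 in wt, with 692 and 581 in E518K. Both E518K clones lay above both wt clones for these 3 genes, narrowly so for clone 15 in mt-Nd5 and mt-Nd6. KO exceeded wt by 0.46 ± 0.09 for mt-Nd2, 0.49 ± 0.08 for mt-Nd5 and 0.45 ± 0.10 for mt-Nd6 (adjusted p = 0.00386, 0.00184 and 0.00824), and the mt-Nd6 call was lost without KO library 1.

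For complex III, mt-Cytb, the cytochrome b that carries both quinone sites, had 2816 and 2751 CPM in KO, 2319 and 2027 in wt, with 2487 and 2175 in E518K. It had the smallest KO difference of the 13 (0.36 ± 0.09; adjusted p = 0.0108), and the call was lost without KO library 1 or without KO library 3.

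In complex IV, mt-Co3 had 4596 and 4527 CPM in KO, 2776 and 2741 in wt, with 3289 and 3056 in E518K. The groups did not overlap, and here E518K lay nearer to wt. mt-Co1 had 15640 and 15337 CPM in KO, 11398 and 10480 in wt, with 11900 and 10878 in E518K, so that E518K and wt overlapped. mt-Co2, which takes electrons from cytochrome c, had 5673 and 5975 CPM in KO, 4432 and 3839 in wt, with 4549 and 4594 in E518K. KO exceeded wt by 0.50 ± 0.07 for mt-Co1 and 0.49 ± 0.08 for mt-Co2 (adjusted p = 0.000749 and 0.00137), and E518K was below KO in both, by log2 values of -0.44 ± 0.07 and -0.35 ± 0.08.

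In complex V, mt-Atp6, part of the proton channel, had 4861 and 4847 CPM in KO, 3068 and 3077 in wt, with 4233 and 4349 in E518K. mt-Atp8 had 1357 and 1262 CPM in KO, 791 and 863 in wt, with 1165 and 1204 in E518K. In both genes the E518K clones sat between the other groups without overlap, nearer to KO. E518K exceeded wt by 0.48 ± 0.05 for mt-Atp6 and 0.52 ± 0.07 for mt-Atp8 (adjusted p = 0.00183 and 0.00379).

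**Figure D2:**
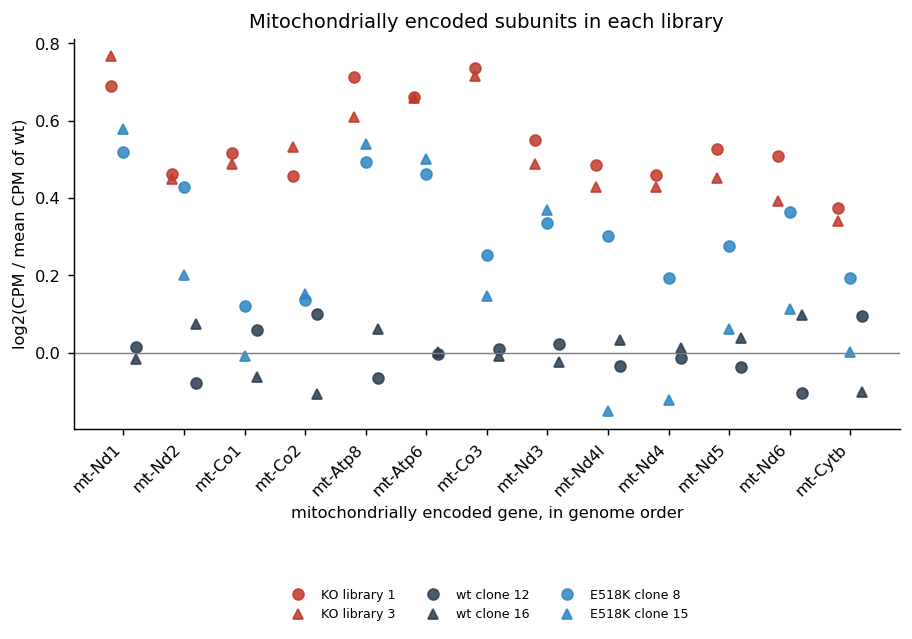
Level of each mitochondrially encoded member in every library as log2 of CPM over the mean CPM of wt (vertical axis), in genome order. Both KO libraries stand above both wt clones for all 13 genes, and E518K clone 15 falls below wt for mt-Nd4l and mt-Nd4.

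The 13 genes did not move by equal amounts. When each library was scaled to the summed counts of the 13 genes and all genes were refitted, mt-Nd1 and mt-Co3 took a larger part of the mitochondrial pool in KO than in wt (0.19 ± 0.06 and 0.18 ± 0.04; edgeR adjusted p = 0.0326 and 0.00648). mt-Cytb took a smaller part (-0.18 ± 0.06; adjusted p = 0.0307), and the other 10 did not pass. In E518K against wt, mt-Nd1 (0.35 ± 0.06), mt-Atp8 (0.32 ± 0.08) and mt-Atp6 (0.28 ± 0.06) took a larger part and mt-Co1 a smaller one (-0.14 ± 0.04; adjusted p between 0.00764 and 0.0312 for these 4). Between E518K and KO, mt-Co3 took a smaller part in E518K (-0.18 ± 0.04; adjusted p = 0.00954) and mt-Atp6 a larger part (0.17 ± 0.06; adjusted p = 0.044). These are ratios within the pool and show unequal change, not which gene stayed constant. The scaling shifts every nuclear gene too, as it took mt-Co1 in KO against wt from 0.50 to -0.04. Adjustment ran over all genes in that fit, so these adjusted p-values depend on the shift. Whether the calls hold with adjustment over the 13 genes alone was not tested.

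Against wt, E518K cells had more of 6 mitochondrially encoded transcripts. In this comparison 23.7% of all genes tested passed, 11.3% higher and 12.5% lower. The 6 were mt-Nd1 (0.55), mt-Atp8 (0.52), mt-Atp6 (0.48), mt-Nd3 (0.35), mt-Nd2 (0.32) and mt-Co3 (0.20), none fell, and the median of all 13 was 0.20. The E518K clones lay above both wt clones for 9 of the 13 (30.2% of all genes tested). The calls of mt-Nd2 and mt-Co3 did not survive leaving out either E518K clone, either KO library, or all of KO, and that of mt-Nd3 was lost without E518K clone 15.

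Between E518K and KO, 41.8% of all genes tested passed, 22.0% higher and 19.8% lower in E518K. Of the 13 mitochondrial members 8 were lower in E518K and none higher, with a median of -0.26, and E518K lay wholly below KO for all 13 (41.1% of all genes). The 8 were mt-Co3 (-0.52), mt-Co1 (-0.44), mt-Nd4 (-0.40), mt-Co2 (-0.35), mt-Nd5 (-0.32), mt-Nd1 (-0.18), mt-Atp6 (-0.18) and mt-Nd3 (-0.17). Without KO library 3 only 2 of them passed (mt-Co1 and mt-Co3), without KO library 1 or E518K clone 15 it was 3 of them, and without E518K clone 8 it was 4. E518K clone 8 lay between the KO and wt means for all 13 genes and clone 15 for 10.

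Complex I held most of the nuclear members, 36 in all. In KO against wt 21 of them fell and 3 rose, with a median of -0.31, where 29.7% of all genes tested fell and 27.4% rose. The 12 Ndufb and Ndufc subunits, which build the membrane arm, all lay lower in KO in every library, and 10 of the 12 passed (median -0.45). KO lay wholly below wt for 41.6% of all genes tested. The 7 nuclear subunits of the catalytic core, which hold the flavin and iron-sulphur clusters, had a median of 0.09, with 1 higher (Ndufs1) and 2 lower (Ndufs7 and Ndufv2). The calls of Ndufs7 and Ndufv2 were lost with library totals, with only the 2 groups fitted and without either KO library. The 29 accessory subunits had a median of -0.37, with 2 higher and 19 lower.

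Ndufc1, a small membrane arm subunit (chr3:51404677-51408988, minus strand, GRCm38), had 17.4 and 17 CPM in KO, 39.4 and 34.8 in wt, with 35.3 and 32.9 in E518K. It fell by 1.11 ± 0.09 in KO against wt (SE; adjusted p = 0.000132) and E518K was higher than KO by 0.99 ± 0.09. Ndufa7 had 82.5 and 79.9 CPM in KO against 170 and 143 in wt, with 134 and 128 in E518K, and Ndufb10 had 29.2 and 28.5 in KO, 58.2 and 51.5 in wt, with 53.1 and 48.7 in E518K. KO stood apart below the other 4 libraries for all 3 genes.

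The rises in complex I were fewer. Ndufa5, an accessory subunit of the matrix arm (chr6:24518666-24528013, minus strand), had 26.2 and 25.6 CPM in KO, 13.8 and 17.3 in wt, and 25.1 in each E518K clone. KO and E518K lay close together and above wt: the difference between E518K and KO was -0.04 ± 0.12, and against wt it was 0.73 ± 0.12 in KO and 0.69 ± 0.12 in E518K (adjusted p = 0.00189 and 0.00917). The E518K call was lost without either E518K clone. Ndufs1, the largest iron-sulphur subunit, had 109 and 112 CPM in KO, 82.2 and 84.6 in wt, with 92.8 and 106 in E518K, and its span overlaps Eef1b2. Ndufs4, an assembly-critical accessory subunit, had 61.3 and 62.5 CPM in KO, 50.8 and 48.3 in wt, with 58.0 and 60.9 in E518K (0.32 ± 0.07 in KO; adjusted p = 0.00627, lost without either KO library).

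Ndufv2, an iron-sulphur subunit beside the flavin site, was called in opposite directions against wt. It had 78.1 and 76.4 CPM in KO, 89.1 and 87.5 in wt, with 109 and 112 in E518K, so the groups did not overlap and wt lay in the middle. The log2 fold change was -0.19 ± 0.06 in KO and 0.32 ± 0.06 in E518K (adjusted p = 0.0283 and 0.0111), and 0.51 ± 0.06 between E518K and KO (adjusted p = 0.000826). Both calls against wt were lost without either KO library, and that in E518K also without E518K clone 15. The fall in KO was also lost with library totals, with only the 2 groups fitted and with limma on log2(TPM + 1). Ndufv3, a small flavoprotein subunit, had 57.2 and 55.7 CPM in KO, 102 and 86.5 in wt, with 72.8 and 70.3 in E518K, which lay between the other groups. It fell in KO by 0.74 ± 0.09, and its fall in E518K (-0.40 ± 0.09; adjusted p = 0.0202) was lost without any 1 KO or E518K library.

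Complex II, which is wholly nuclear and links the tricarboxylic acid cycle to the chain, was split. Sdha, the flavoprotein, had 305 and 307 CPM in KO, 265 and 226 in wt, with 252 and 273 in E518K, and rose in KO by 0.32 ± 0.09 (adjusted p = 0.0161). Sdhd, a membrane anchor, had 66.3 and 65.7 CPM in KO, 100.0 and 90.0 in wt, with 104 and 103 in E518K, and fell by 0.53 ± 0.07 in KO (adjusted p = 0.00085). Sdhc, the other anchor, had 89.4 and 84.7 CPM in KO, 116 and 104 in wt, with 106 and 98.3 in E518K (-0.34 ± 0.08; adjusted p = 0.00895). Sdhb, the iron-sulphur protein, had 84.8 and 91.0 CPM in KO and 108 and 83.7 in wt, which overlapped (-0.12 ± 0.12; adjusted p = 0.404). The Sdha call was lost without either KO library and the Sdhc call without KO library 3.

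Complex III held both the largest fall and one of the largest rises among well-counted members. Uqcrq, a small accessory subunit (chr11:53427922-53430831, minus strand), had 51.9 and 53.4 CPM in KO, 135 and 114 in wt, with 125 and 118 in E518K. It fell by 1.24 ± 0.09 in KO against wt (adjusted p = 7.67e-05), and E518K overlapped wt (-0.04 ± 0.09; adjusted p = 0.777). Uqcrb, the ubiquinone-binding subunit (chr13:66900617-66905378, minus strand), had 120.0 CPM in both KO libraries, 68.8 and 80.9 in wt, with 120.0 and 129 in E518K. As for Ndufa5, KO and E518K lay together above wt (0.68 ± 0.09 and 0.73 ± 0.09; adjusted p = 0.000705 and 0.00311) and differed from each other by 0.05 ± 0.09. Uqcr11 fell in KO (63.9 and 58.1 CPM against 115 and 93.2), and the other 5 nuclear members of the complex did not pass.

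In complex IV 12 of 15 tested nuclear members fell in KO and 1 rose, with a median of -0.56, the lowest of the 5 complexes. Of all genes tested 29.7% fell and 27.4% rose. Cox7a2l had 79.2 and 78.5 CPM in KO, 153 and 125 in wt, with 127 and 118 in E518K (-0.81 ± 0.10 in KO; adjusted p = 0.000561). Cox7a2, a subunit of the same family, had 80.0 and 83.0 CPM in KO, 148 and 123 in wt, with 137 and 132 in E518K. Both fell in KO, and E518K exceeded KO by 0.64 ± 0.10 and 0.72 ± 0.09. Cox7b, which is required for assembly, had 92.1 and 91.5 CPM in KO, 144 and 140 in wt, with 153 and 160 in E518K, and E518K exceeded KO by 0.77 ± 0.06.

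Complex IV isoforms known from certain tissues ranged from a few counts to well-counted genes. Cox7a1, known from heart and skeletal muscle, had 8.17 and 7.76 CPM in KO, 17.4 and 11.7 in wt, with 9.09 and 7.74 in E518K. Cox6b2, known from testis, had 33.5 and 32.8 CPM in KO, 61.7 and 59.3 in wt, with 46.2 and 34.3 in E518K. Both isoforms fell in KO (-0.87 ± 0.20 and -0.87 ± 0.13) and in E518K (-0.79 ± 0.20 and -0.59 ± 0.13), and their common counterparts differed: Cox7a2 fell in KO as given above, and Cox6b1 had 229 and 216 CPM in KO against 237 and 202 in wt. The Cox7a1 call in E518K was lost without any 1 KO or E518K library, and its call in KO without KO library 3. The Cox6b2 call in E518K was lost without wt clone 12 or E518K clone 15.

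The remaining isoform pairs had 1 abundant partner. Cox4i1, the common isoform, had 296 CPM in both KO libraries, 423 and 348 in wt, with 352 and 339 in E518K, with a span that overlaps Emc8, while Cox4i2, the isoform known for hypoxia and lung, had 0.207 and 0.337 CPM in KO, 1.86 and 0.636 in wt, with 0.111 and 0.411 in E518K. The wt clones differed widely in Cox4i2, and its fall in KO (-2.19 ± 0.71; adjusted p = 0.0328) stood at -1.22 without wt clone 12 and was lost there and without either KO library. The falls of Cox4i1 and Cox6a1 in KO (-0.38 ± 0.09 and -0.26 ± 0.08) were lost without either KO library. Cox6a1 had 210 and 208 CPM in KO and 267 and 233 in wt, and Cox8a 193 and 181 in KO and 253 and 240 in wt. Cox6a2 and Cox8b, known from heart and skeletal muscle, and the testis gene Cox8c had 0 to 10 counts per library and were not tested. Cox7b2, another testis gene, was the 1 nuclear member of the complex that rose, from 0.166 and 0.379 CPM in wt to 1.36 and 0.739 in KO. The call was lost without KO library 1 and with limma on log2(TPM + 1).

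In complex V 11 of 17 nuclear members fell in KO, none rose, and the median was -0.31 (29.7% of all genes fell and 27.4% rose). The 3 genes for the identical c-ring protein all fell. Atp5g1 had 125 and 122 CPM in KO, 206 and 203 in wt, with 235 and 219 in E518K (-0.73 ± 0.06 in KO; adjusted p = 0.000125). Atp5g2 had 199 and 198 CPM in KO, 300.0 and 281 in wt, with 292 and 270 in E518K, and Atp5g3 had 207 and 204 in KO, 328 and 277 in wt, with 315 and 291 in E518K. KO was below all 4 other libraries for each of the 3.

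Other named subunits of complex V differed among themselves. Atp5j2 had 102 and 101 CPM in KO, 186 and 161 in wt, with 171 and 166 in E518K (-0.77 ± 0.08; adjusted p = 0.000272). Atp5e, the epsilon subunit, had 62.6 and 62.7 CPM in KO, 129 and 84.1 in wt, with 99.1 and 94.3 in E518K, so that the wt clones lay on either side of E518K. Atp5j had 114 and 113 CPM in KO and 118 and 111 in wt, which overlapped (-0.02 ± 0.06; adjusted p = 0.78), and was higher in E518K at 141 and 140 (0.29 ± 0.06 against wt; adjusted p = 0.0169, lost without any 1 KO or E518K library), and its span overlaps that of Gabpa.

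**Figure D3:**
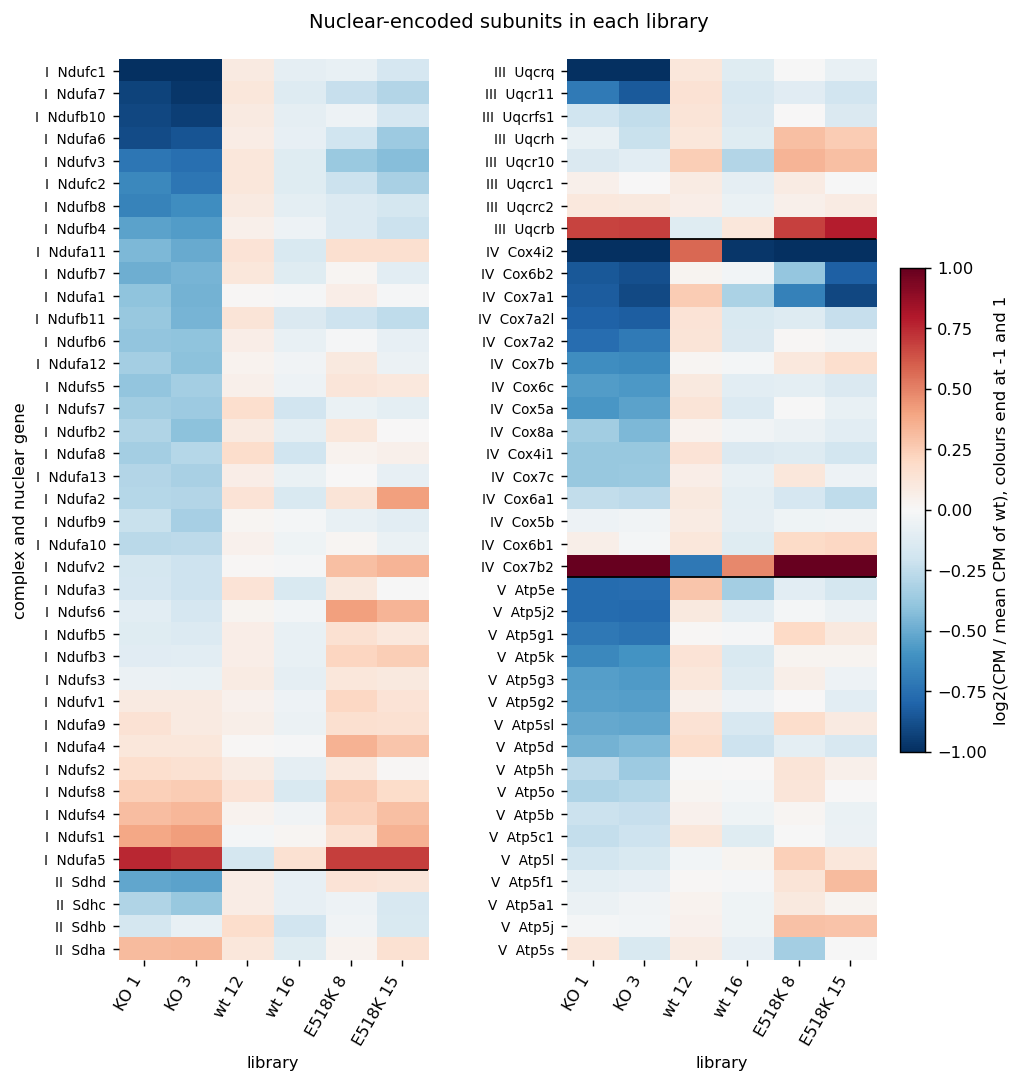
Level of each tested nuclear member in every library as log2 of CPM over the mean CPM of wt, ordered within complex by the KO level, with colours that end at -1 and 1. Both KO columns are blue for most rows, wt clone 12 is redder than wt clone 16 in 74 of 80 rows, and Ndufa5 and Uqcrb are red in KO and E518K alike.

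Few nuclear members differed between E518K and wt, and the count depended on the wt clone. Of 80 tested, 7 rose and 3 fell, where 11.3% of all genes rose and 12.5% fell. Both E518K clones lay above wt for 26 (30.2% of all genes) and below for 13 (31.8%). The median was 0.02, and it becomes -0.02 with upper-quartile scaling and -0.04 with limma on log2(TPM + 1). The rises were Uqcrb, Ndufa5, Ndufs6, Ndufv2, Ndufa4, Atp5j and Ndufs4, and the falls were Cox7a1, Cox6b2 and Ndufv3. The calls of Ndufa4 and Ndufs4 were lost without any 1 KO or E518K library. That of Ndufs4 was also lost with only the 2 groups fitted and with limma on log2(TPM + 1). With upper-quartile factors 7 rose and 8 fell, and with library totals alone 7 rose and 5 fell. Ndufs6, a zinc-binding subunit of complex I, had 105 and 100.0 CPM in E518K, 80.9 and 77.8 in wt, and 73.6 and 70.6 in KO, and its span overlaps that of Mrpl36. Its rise in E518K against wt (0.38 ± 0.07; adjusted p = 0.00919) was lost without either E518K clone.

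The wt clones themselves differed in these genes. Clone 12 exceeded clone 16 in 74 of 80 nuclear members (92.5%), with a median log2 ratio of 0.17, against 49.7% of all genes tested and a median of -0.00. For the 13 mitochondrial genes clone 12 was higher in 6. E518K clone 8 exceeded clone 15 in 63 of 80 nuclear members, with a median of 0.07, and KO library 1 exceeded library 3 in 52, with a median of 0.01. Without wt clone 12, 24 nuclear members were called higher and 2 lower in E518K against wt, and without wt clone 16, 10 were called higher and 20 lower. Without E518K clone 15 only 1 was called.

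Against KO, E518K had higher levels of 47 of the 80 nuclear members and lower levels of none, where 22.0% of all genes were higher and 19.8% lower. With library totals it was 42 higher and 3 lower, with limma on log2(TPM + 1) 40 higher and 2 lower, and 1 was lower without either wt clone or with only these 2 groups fitted. The median was 0.34 (0.24 with library totals and 0.22 with limma), and the E518K libraries lay wholly above KO for 64 (39.4% of all genes) and below for 6 (41.1%). The rises covered 23 of 36 members in complex I, 1 of 4 in complex II, 3 of 8 in complex III, 7 of 15 in complex IV and 13 of 17 in complex V. Uqcrq was the highest at 1.21 ± 0.09, followed by Ndufc1 and Atp5g1 (0.99 ± 0.09 and 0.88 ± 0.06). E518K clone 8 lay nearer to the wt mean than to the KO mean for 62 of 80 members and clone 15 for 60. Of the 47, 25 were still called without KO library 3 and 26 without KO library 1.

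Summed over members, KO had the most mitochondrially encoded counts per nuclear-encoded count in every mixed complex. This ratio stood at 4.45 and 4.44 in KO, 2.49 and 2.65 in wt, with 2.95 and 2.87 in E518K. In complex I it was 5.48 and 5.50 in KO, 3.02 and 3.47 in wt, with 3.96 and 3.66 in E518K, and in complex V it was 1.24 and 1.22, 0.619 and 0.684, and 0.866 and 0.934. In complex IV it was 14.0 and 14.1 in KO, 7.16 and 7.55 in wt, with 8.30 and 8.13 in E518K. For complex III the ratio was 2.85 and 2.86 in KO and 2.04 and 2.06 in wt, and the E518K clones (2.12 and 1.92) fell on both sides of wt. Nuclear members made up 1.12% of counts in both KO libraries, 1.30% and 1.22% in wt, and 1.29% and 1.24% in E518K. The ratio uses deposited counts without a length correction, so its size depends on which genes are summed, and an exact permutation test of 2 libraries against 2 cannot go below a two-sided p of 0.333.

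**Figure D4:**
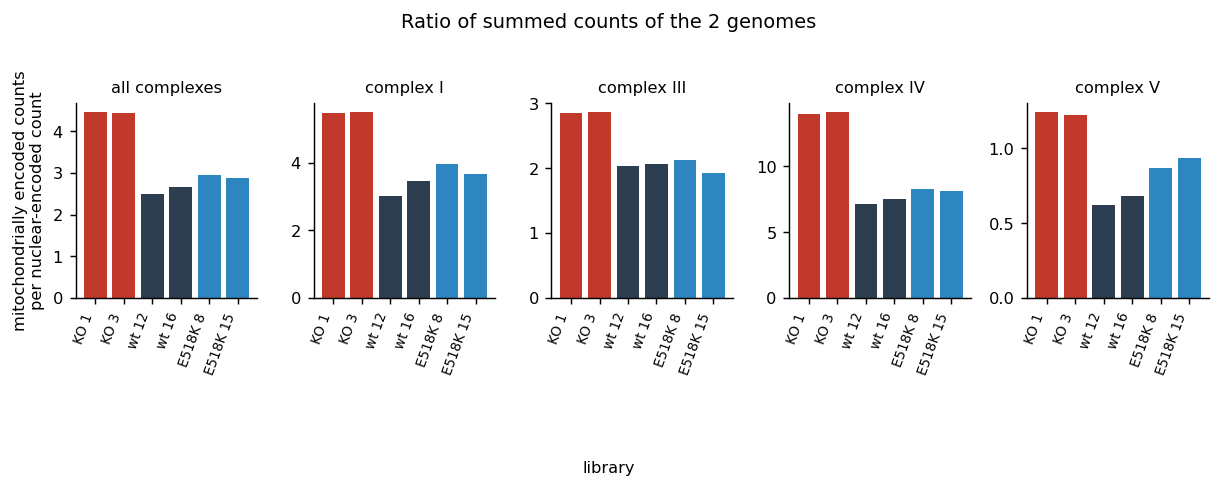
Summed counts of mitochondrially encoded members per count of nuclear-encoded members in each library, for all complexes and for each mixed complex, with a separate vertical axis per panel starting at 0. The KO bars are the tallest in every panel.

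The fall of nuclear members in KO went with gene size. The median span was 7674 bp for the 79 tested nuclear members with coordinates and 24771 bp for other nuclear genes tested. Under 10 kb of span (10000 bp), 67.9% of 53 members fell in KO with a median of -0.40, beside 41.0% of 3716 other genes with a median of -0.29. From 10000 to 30000 bp it was 45.5% of 22 members (median -0.21) beside 35.4% of other genes (median -0.12). Above that size 1 of 4 members fell and 3 rose, beside 20.7% and 37.7% of other genes. Across genes, Spearman's rho between span and log2 fold change was 0.41 over the 79 members and 0.27 over 15204 genes, as a description, since genes of one fit share libraries. The part of span in the fall was not tested.

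**Figure D5:**
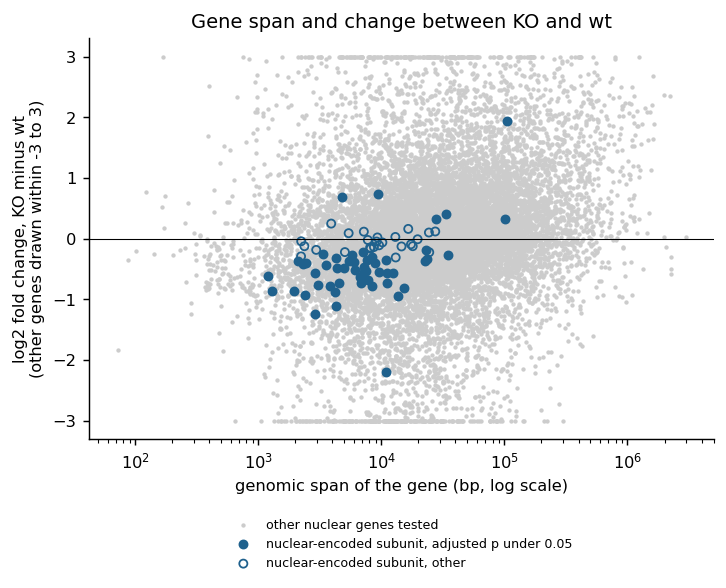
Log2 fold change between KO and wt (vertical axis, other genes drawn within -3 to 3) against genomic span in bp (log scale) for nuclear members (blue, filled when adjusted p is under 0.05) and other nuclear genes tested (grey). Most members are short and lie below 0, and the grey cloud also sits lower at short spans.

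The upstream regions of nuclear members were searched for 3 motifs of factors known to control respiratory genes, on both strands, from 250 bases before to 50 after the start, in RefSeq promoters of GRCm38.p6, which held 66 of the 83 members. The 10-base NRF1 motif, with any base at its centre, was in 17 of 66 (25.8%), in 9.8% of other genes tested with a promoter and in 5.2% of all 27025 promoters. Of the members with a promoter, 11 of 41 that fell in KO held it and 6 of 24 tested ones that did not fall. The ETS motif CCGGAAGT was in 7.6% of members and 7.7% of other genes tested, and in 3 of the 41 that fell and 2 of the 24 that did not. The YY1 motif was in 7.6% of members and 2.0% of other genes tested, and in 1 of the 41 that fell and 4 of the 24 that did not. The following stretches, with the NRF1 match in capitals, are from 2 members that rose in KO (Sdha and Ndufa5) and 2 that fell (Sdhd and Atp5g2), and are shown because the match was in both kinds. They lie on the minus strand at chr13:74350304-74350363, chr6:24527682-24527741, chr9:50603894-50603953 and chr15:102671055-102671114.

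Sdha: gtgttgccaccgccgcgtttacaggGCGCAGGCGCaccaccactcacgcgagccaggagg

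Ndufa5: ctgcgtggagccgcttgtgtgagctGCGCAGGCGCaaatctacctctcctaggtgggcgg

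Sdhd: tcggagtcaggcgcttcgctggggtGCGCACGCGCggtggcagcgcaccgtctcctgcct

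Atp5g2: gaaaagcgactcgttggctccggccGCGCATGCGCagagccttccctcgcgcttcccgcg

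The level of Nrf1, the factor that binds this motif, was 59.9 and 58.4 CPM in KO, 77.3 and 74.8 in wt, with 75.5 and 74.9 in E518K (-0.36 ± 0.06 in KO against wt; adjusted p = 0.00233). A match is a string in a window and not a measured binding site.

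Because DGCR8 is needed for most miRNAs, 3′ UTRs of members were searched for the site of the seed AAGUGCU. The miRNAs below share this seed (bases 2 to 8, capitals, from RefSeq, GRCm38.p6), which pairs with AGCACTT in a transcript. The levels of these miRNAs were not examined here.

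mmu-miR-291a-3p: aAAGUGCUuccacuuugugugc

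mmu-miR-294-3p: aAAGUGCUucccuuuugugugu

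mmu-miR-295-3p: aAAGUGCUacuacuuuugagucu

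mmu-miR-302b-3p: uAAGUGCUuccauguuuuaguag

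The site was in 6 of 79 nuclear members with a UTR (7.6%) and in 17.6% of 14895 other genes tested, and UTRs of members were short (median 264 against 1291 bases). Of the 6, Ndufs4 rose in KO and Atp5g1, Ndufb8, Ndufb2, Atp5sl and Sdhd fell, with a median of -0.52. The 73 members without the site had a median of -0.31. Among other genes the median was 0.21 with the site and -0.08 without. The site and flanks are shown for the member that rose and for 2 that fell, with the site in capitals.

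Ndufs4 site: tacgaaatcagAGCACTTagagtttacca

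Sdhd site: cctgggtgcAGCACTTtgattgtgtgc

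Atp5g1 site: ctagtaatcccAGCACTTggagtatgcag

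Genes that serve the chain moved in both directions in KO, as did all genes tested, of which 27.4% rose and 29.7% fell. Of 23 genes for replication and transcription of mitochondrial DNA, 13 fell and 5 rose, with a median of -0.30. Tfam, which packages the DNA and starts transcription, had 47.4 and 45.8 CPM in KO, 79.4 and 81.7 in wt, with 74.7 and 77.5 in E518K (-0.79 ± 0.07 in KO; adjusted p = 0.000117). Tefm, the transcription elongation factor, had 34.8 and 33.7 CPM in KO, 11.8 and 14.4 in wt, with 26.6 and 31.2 in E518K, and Tfb2m, the initiation factor, had 32.0 and 33.2 in KO, 16.5 and 18.6 in wt, with 23.6 and 25 in E518K. E518K exceeded KO in Tfam by 0.71 ± 0.07. Tefm and Tfb2m rose in KO by 1.39 ± 0.13 and 0.89 ± 0.10, and in E518K by 1.14 ± 0.13 and 0.47 ± 0.10.

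Of 19 tested genes for processing and decay of mitochondrial RNA, 7 rose and 5 fell in KO (27.4% and 29.7% of all genes). In E518K against wt 7 rose and none fell, where 11.3% of all genes rose and 12.5% fell. Grsf1, an RNA-binding protein of mitochondrial RNA granules, had up to 519 CPM in KO, 302 and 260 in wt, with 512 and 515 in E518K. Rexo2, an exonuclease for short RNAs, had 57.7 CPM in both KO libraries, 36.2 and 35.9 in wt, with 53.4 and 49.0 in E518K. Fastkd1 had 17.5 and 19.0 CPM in KO, 30.1 and 30.2 in wt, with 27.1 and 27.6 in E518K. Grsf1 differed between E518K and KO by -0.01 ± 0.08, and Fastkd1 by 0.58 ± 0.09.

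The mitochondrial ribosome, which translates the 13 transcripts, had 42 of 78 tested genes lower and 8 higher in KO, with a median of -0.28. Among all genes tested 29.7% were lower and 27.4% higher. Mrpl55 had 12.3 and 12.7 CPM in KO, 29.7 and 25.6 in wt, with 25.8 and 28.1 in E518K, and Mrpl11 had 25.4 and 24.9 in KO, 46.7 and 42.7 in wt, with 58.1 and 55.2 in E518K. In E518K 22 of the 78 were higher and 1 lower than in wt (11.3% and 12.5% of all genes). Mrps22 was among the higher ones (33.2 and 39.8 CPM against 21.3 and 21.4). Against KO, 56 were higher and none lower in E518K (22.0% and 19.8% of all genes).

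Of 48 tested assembly factors of the chain, 17 fell and 7 rose in KO (29.7% and 27.4% of all genes), with a median of -0.15. Tmem126b, which builds the membrane arm of complex I, had 26.6 and 27.4 CPM in KO, 9.05 and 8.90 in wt, with 15.4 and 18.3 in E518K (1.59 ± 0.12 in KO and 0.91 ± 0.11 in E518K; adjusted p = 7.69e-05 and 0.0035). Cox17, the copper chaperone of complex IV, had 27.5 and 26.5 CPM in KO, 52.5 and 50.3 in wt, with 48.7 and 49.6 in E518K, and Uqcc3, a complex III factor, had 10.8 and 9.63 in KO, 19.0 and 20.1 in wt, with 24.5 and 22.2 in E518K. Tmem126b rose in both groups against wt, and the other 2 fell in KO and were higher in E518K than in KO by 0.86 ± 0.07 and 1.19 ± 0.11.

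Among 20 tested genes for electron carriers and ubiquinone synthesis, 7 rose and 4 fell in KO (27.4% and 29.7% of all genes), with a median of 0.06. Cycs, cytochrome c, had 96.8 and 96.6 CPM in KO, 58.9 and 67.9 in wt, with 98.2 and 107 in E518K, again with KO and E518K together above wt (0.61 ± 0.09 and 0.70 ± 0.09; adjusted p = 0.00102 and 0.00336). Etfdh, which feeds electrons from fatty acid oxidation to ubiquinone, had 40.5 and 38.7 CPM in KO, 23.2 and 24.3 in wt, with 23.8 and 24.5 in E518K. Dhodh, which does so from pyrimidine synthesis, had 27.1 and 27.8 CPM in KO, 56.0 and 47.0 in wt, with 47.8 and 47.0 in E518K.

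Of 16 tested nuclear regulators of respiratory genes, 5 fell and 2 rose in KO (29.7% and 27.4% of all genes). Myc had 4.47 and 4.90 CPM in KO, 16.9 and 14.8 in wt, with 23.9 and 28.4 in E518K, so wt lay between the groups (-1.76 ± 0.14 in KO and 0.72 ± 0.13 in E518K; adjusted p = 9.63e-05 and 0.0101). Esrrb, an orphan nuclear receptor that is also a stem cell factor, had 595 and 593 CPM in KO, 816 and 784 in wt, with 760 and 778 in E518K, and Creb1 had 63.1 and 64.0 in KO, 24.6 and 29.8 in wt, with 33.3 and 39.4 in E518K. The part of these regulators in the levels of the members was not tested.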

How the data were processed

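Poly(A)-selected RNA of 6 libraries was measured. The authors deposited whole-number counts per gene symbol without normalization, and TPM made from them by the authors with 1 length per gene. The submitters' processing notes name STAR, bedtools and GRCm38.p6. Versions, roles and the handling of multi-mapped reads are not stated in the sources used here, so members with pseudogenes or nuclear copies of mitochondrial DNA are uncertain to that extent. Counts were tested with edgeR 4.0.16 (R 4.3.3) in 1 fit over all 6 libraries: default filter with a minimum count of 10 (16498 of 21978 genes), TMM factors, robust quasi-likelihood F tests, 3 residual degrees of freedom, a common biological coefficient of variation of 11.9%, Benjamini-Hochberg adjustment over all genes tested, threshold 0.05. The procedure was also run on simulated data with independent libraries and far fewer changed genes than were called here. That run cannot speak for error rates in these data. Alternatives used DESeq2 1.42.0, limma 3.58.1 on log2(TPM + 1), other scalings, filters and subsets of libraries. Spans, overlaps and UTRs came from GENCODE (GRCm38): 94 members matched by symbol and 1 by synonym, and Atp5o lay at several loci.

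The members and lists were chosen with earlier results of these data known. Named members are the 13 mitochondrial genes, complex II, the 2 largest called rises and falls per complex and comparison (average log2 CPM from 1 upwards), isoform families, members called in opposite directions, and up to 3 members per list with the smallest p. Ndufs4, Ndufs7, Ndufa4, Ndufb2, Ndufb8, Atp5b, Atp5sl, Cox7b2 and Nrf1 were named after their values were seen.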

Additional observations from a re-analysis of the deposited data

How the results depend on the processing

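Under the alternative scalings, filters and tools run on 6 separate libraries, all 13 mitochondrial members remained called higher in KO than in wt. When the KO libraries were summed to 1 sample, the calls of mt-Cytb and mt-Nd4l in KO against wt were lost. The calls of mt-Nd2 and mt-Co3 in E518K against wt were lost there too. Leaving out 1 library gave 10 to 13 mitochondrial and 34 to 66 nuclear calls in KO against wt. For E518K against wt the ranges were 3 to 6 and 1 to 30, and for E518K against KO 2 to 10 and 25 to 61. With the KO libraries summed to 1 sample, nuclear calls were 34 in KO against wt, 4 in E518K against wt and 24 in E518K against KO, and mitochondrial calls were 2 in E518K against KO. With only the 2 groups compared, E518K against wt had 6 nuclear calls, and limma on log2(TPM + 1) gave 16. Fitting only genes that overlap no other gene left 6 mitochondrial members, of which 6, 3 and 2 passed in the 3 comparisons; their share of counts was 3.11% in KO, 2.06% in wt and 2.28% in E518K, and the ratio of the genomes 3.88, 2.21 and 2.46. The change of Atp5e in E518K against wt, -0.14 with all libraries, was 0.20 without wt clone 12 and -0.42 without wt clone 16. Apart from these subsets with fewer genes or samples, the cause of a difference was not tested. No paired analysis was possible because the groups share no replicate numbers. With 2 libraries a group, small differences may not be detectable.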

Other observations

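Enzymes of the tricarboxylic acid cycle supply NADH and succinate to the chain. Of 18 tested in KO against wt, 7 rose and 5 fell, with a median of 0.01, where 27.4% of all genes rose and 29.7% fell. Cs, citrate synthase, had 489 and 482 CPM in KO, 338 and 361 in wt, with 381 and 368 in E518K, and Dld, a shared subunit of the 2-oxo acid dehydrogenases, had 55.1 and 54.5, 29.1 and 26.5, and 30.5 and 38.3 in the same order. Pcx, pyruvate carboxylase, had 36.6 and 34.9 CPM in KO, 63.4 and 60.1 in wt, with 60.1 and 63.2 in E518K.

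Genes of the outer membrane and of protein import fell in 14 of 23 cases and rose in 4 in KO, with a median of -0.31. Of all genes 29.7% fell and 27.4% rose. The small subunits of the import channel Tomm5 and Tomm7 had 28.2 and 26.5, and 48.1 and 51.5 CPM in KO, against 68.1 and 67.3, and 81.5 and 82.4 in wt. In E518K against wt 5 of the 23 rose and none fell (11.3% and 12.5% of all genes).

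In the list of mitophagy genes and hypoxic respiratory isoforms, 7 of 11 tested genes fell in KO and 3 rose (29.7% and 27.4% of all genes). Ndufa4l2, the hypoxia-induced relative of Ndufa4, had 0.142 and 0.117 CPM in KO, 28.1 and 11.9 in wt, with 4.78 and 3.84 in E518K, and its span overlaps that of Shmt2. The mitophagy receptor Bnip3 had 51.3 and 53.6 CPM in E518K, below both wt clones at 137 and 97.6 and above both KO libraries at 14.6 and 13.3.

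Marker lists of other cell types in KO against wt, where 57.2% of all genes were called, gave these counts: 1 of 6 tested fibroblast genes rose and 1 fell, 1 of 7 trophectoderm genes rose and 4 fell, 2 of 6 primitive endoderm genes fell, and 2 of 3 blood genes fell.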
